A study of Rattus norvegicus with 4 samples.

Results

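Rab, Arf and Arl proteins are small GTPases that mark membranes inside the cell and direct vesicles between them. Their genes were measured here in the NR8383 line, macrophages rinsed from the lung of a normal rat and kept in culture. The members were all genes whose rat symbol is Rab, Arf or Arl followed by a number, with an optional letter, so that exchange factors and effectors stayed out. Of 84 such symbols in the gene table used, 77 had at least 1 probe on the arrays, among 16581 named genes in all. They comprise 54 Rab, 6 Arf and 17 Arl genes. The symbols Arl14, Arl15, Arl16, Rab22a, Rab37, Rab42 and Rab44 had no matched probe.

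All 4 samples form 1 group, labelled NRCWE006, with 4 biological replicates. Each was a culture of NR8383 cells after 20 passages, seeded for 48 h and then given NRCWE006 multi-walled carbon nanotubes for 4 h at 1 cm2 of nanotube surface per cm2 of culture. Untreated cultures are part of the study's design but were not analysed here. No value below is therefore an effect of the nanotubes, and the questions are which members could be measured and by how much replicates varied. The cells are 1 rat line that grows partly attached and partly floating, and each culture was measured on 1 array.

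A GTPase of these families works as a switch. An exchange factor loads it with GTP on its target membrane, where it recruits coats, tethers and motors, and a GTPase-activating protein ends the signal. In a macrophage, a phagosome passes from a Rab5 stage to a Rab7 stage and then fuses with lysosomes, and Arl8 links lysosomes to kinesin motors. Arf1 and Rab1 act earlier, between the endoplasmic reticulum and the Golgi.

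Replicate 4 stood apart from the others. The software called 5722, 4745, 4252 and 6476 probes well above background on replicates 1 to 4, and 2952 of those on replicate 4 were called on no other array, against 96 to 918 on the others. Replicate 4 also held 656 non-uniform gene spots, against 9 to 34 on the others, and its negative control spots had a median signal of 4.61, against 2.98 to 3.36. The 75th percentile of the signal over probes detected on all arrays was 384, 281, 236 and 223. No gene spot was saturated, and the headers give 1 slide and 1 scan time for all arrays. Macrophage markers on all 4 arrays were Cd68, Lyz2, Spi1 and Fcgr1a (4 of 12), while 5 of 12, namely Csf1r, Mrc1, Adgre1, Itgam and Cd14, were on none. Markers of other cells were on all arrays for 1 of 10 lung epithelial genes (Napsa), 1 of 6 endothelial genes (Vwf) and 0 of 7 fibroblast, 0 of 5 lymphocyte and 0 of 5 granulocyte and mast cell genes. The part of replicate 4 in each result below was examined only by the values given there.

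The promoters of 5 members are shown because their genes, the lysosomal Arl8 pair and the early endosomal Rab5 trio, belong to the route of phagosomes to lysosomes and had different patterns of calls. Other paralogs, such as Rab8a and Rab8b, also differed in their calls and are not shown. Each is the 250 bases before the transcription start from RefSeq, assembly GRCr8, printed 5′ to 3′ on the strand of the gene. Capitals mark the motifs searched on both strands, which are GGGCGG (the GC box, the usual letters of an Sp1 site), CCAAT, and CACGTG (an E-box), within which TCACGTGA was counted separately. The positions are chr13:49137382-49137631 (plus) for Arl8a, chr4:143304381-143304630 (plus) for Arl8b, chr9:6720877-6721126 (plus) for Rab5a, chr7:1712737-1712986 (minus) for Rab5b and chr10:86166450-86166699 (minus) for Rab5c.
Arl8a: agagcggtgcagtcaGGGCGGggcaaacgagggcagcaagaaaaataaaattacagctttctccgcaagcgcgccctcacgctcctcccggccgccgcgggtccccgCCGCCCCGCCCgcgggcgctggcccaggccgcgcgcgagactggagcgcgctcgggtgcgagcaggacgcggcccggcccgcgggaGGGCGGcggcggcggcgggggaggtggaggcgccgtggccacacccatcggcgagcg
Arl8b: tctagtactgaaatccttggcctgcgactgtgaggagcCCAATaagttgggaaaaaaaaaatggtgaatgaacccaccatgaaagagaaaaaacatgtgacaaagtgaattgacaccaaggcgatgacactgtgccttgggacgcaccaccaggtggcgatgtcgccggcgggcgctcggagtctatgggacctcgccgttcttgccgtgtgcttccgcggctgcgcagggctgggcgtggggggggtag
Rab5a: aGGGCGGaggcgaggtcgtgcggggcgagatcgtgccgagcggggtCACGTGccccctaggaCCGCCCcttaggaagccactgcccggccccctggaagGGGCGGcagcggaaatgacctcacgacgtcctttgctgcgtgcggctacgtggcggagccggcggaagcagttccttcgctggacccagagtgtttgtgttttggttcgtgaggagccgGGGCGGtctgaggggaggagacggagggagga
Rab5b: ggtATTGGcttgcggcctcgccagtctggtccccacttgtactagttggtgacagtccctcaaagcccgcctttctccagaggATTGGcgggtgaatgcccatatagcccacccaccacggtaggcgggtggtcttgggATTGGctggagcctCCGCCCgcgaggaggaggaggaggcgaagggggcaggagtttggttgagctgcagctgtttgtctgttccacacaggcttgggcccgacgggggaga
Rab5c: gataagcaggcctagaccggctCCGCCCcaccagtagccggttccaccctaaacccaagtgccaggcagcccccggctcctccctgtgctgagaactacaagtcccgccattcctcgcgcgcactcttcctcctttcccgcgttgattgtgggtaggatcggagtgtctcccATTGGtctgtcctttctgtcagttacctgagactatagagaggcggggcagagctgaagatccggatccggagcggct

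The promoter of Arl8a held 4 GC boxes, and that of Arl8b held none but had 1 CCAAT motif. Their GC contents were 76.4% and 56.4%. Rab5a had 4 GC boxes and 1 CACGTG motif, Rab5b 1 GC box and 3 CCAAT motifs, and Rab5c 1 of each. Over all members, 65 of 77 had a promoter in the table, and 50 of the 65 (76.9%) held a GC box, against 30.5% of all 33469 promoters and 44.5% of the 14671 promoters of genes on the arrays. Of the 13 members with a promoter that were detected on every array, 12 held a GC box, 2 CCAAT, 2 CACGTG and 0 TCACGTGA. The shares among all detected genes were not computed. CCAAT stood in 21 of 65 (32.3%, against 34.0% of all promoters and 34.8% of those of genes on the arrays), and CACGTG in 6 (9.23%, against 5.59% and 6.60%), namely Arf5, Arl2, Arl5b, Rab21, Rab31 and Rab5a. The longer TCACGTGA, the form bound by the lysosomal regulator Tfeb, was in 2 of 65, Arl2 and Rab21 (3.08%, against 0.657% and 1.02%). These are matches of letters in a fixed window, with no test, and base composition was not taken into account.

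A gene is called detected below when 1 of its probes was well above background on all 4 arrays, by the flag of the scanner software. This held for 15 of 77 members (19.5%), against 11.9% of all 16419 named genes measured on every array. The 15 were Arf1, Arf3, Arf5, Arl8a, Rab1a, Rab1b, Rab4a, Rab4b, Rab8a, Rab14, Rab24, Rab28, Rab29, Rab31 and Rab35. A further 14 (18.2%, against 17.2%) were called on 1 to 3 arrays, and 48 (62.3%, against 70.9%) on none. By family, 11 of 54 Rab genes (20.4%), 3 of 6 Arf genes and 1 of 17 Arl genes (5.88%) were detected. A call depends on the probe as well as the transcript. A member called on no array is thus one that the software did not flag as well above background, not one shown to be absent. The 57 probes of the 48 members on no array had signals of 2.99 to 17.2 on replicate 1, 2.57 to 10.5 on replicate 2, 2.71 to 8.92 on replicate 3 and 3.67 to 22.1 on replicate 4. The count of 15 became 25 of 77, against 21.5% of all genes, when a signal 10% above the 95th percentile of negative controls sufficed. Rab21 and Rab26, called on no array by the flag, were among the 25. The count became 7 of 77, against 9.51% of all genes, when every probe of a gene had to pass, so the members' share was then the lower. No set test was made, and a share is set beside that of all genes only as a description.

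**Figure D1:**
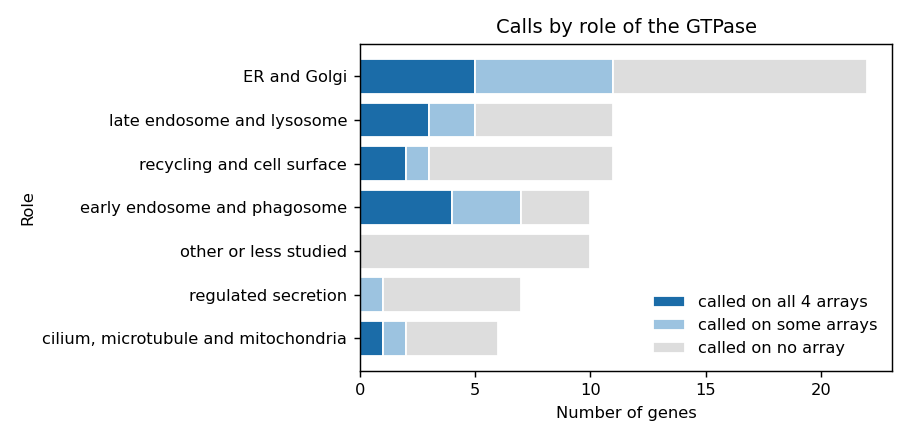
Number of members (x axis) by the role of the GTPase (y axis), split into genes called well above background on all 4 arrays, on some and on none. The early endosome and phagosome group has 4, 3 and 3 genes in these classes, while the regulated secretion group has 0, 1 and 6. Over all named genes the shares of these classes are 11.9, 17.2 and 70.9%, and no difference between roles was tested.

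The roles below were assigned from textbook knowledge of each GTPase. Over all named genes, 11.9% were detected, 17.2% were called on some arrays and 70.9% on none. The role groups hold only 6 to 22 genes, and no difference between roles was tested. Among the 10 members of early endosomes and phagosomes, 4 were detected, 3 were called on some arrays and 3 (Rab20, Rab21 and Rab34) on none. The detected genes were Rab14, which acts between early endosomes and the Golgi, Rab31, which acts between the trans-Golgi network and endosomes, and Rab4a and Rab4b, which serve fast recycling from early endosomes. Rab14 (NM_053589) had processed signals of 253, 127, 104 and 66.9 on replicates 1 to 4. Its level, the log2 signal less the log2 of its array's 75th percentile over detected probes, was -0.60, -1.15, -1.18 and -1.74, with a mean of -1.17 ± 0.46 (SD, n = 4), so replicate 1 was the highest and replicate 4 the lowest. Rab31 (NM_145094) had levels of -1.62, -1.66, -1.81 and -2.05, a narrow spread (SD 0.19) with replicate 4 again lowest. In the pooled RNA of a culture, fewer cells carrying a transcript and less transcript per cell cannot be told apart.

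Rab4a (NM_013019) went the other way, with levels of -3.25, -3.62, -3.83 and -2.82 and replicate 4 the highest. Its signals were dim (40.4, 22.8, 16.6 and 31.5), and its range over the arrays was 2.00-fold. On replicate 4 its processed signal of 31.5 was 1.54 times its median pixel signal of 20.5, and with median pixel signals its difference on replicate 4, relative to all detected genes, was 0.037 in place of 0.81. With quantile normalization it was -0.13, so its place above the other arrays depends on the scaling. Rab4b had an SD of 0.18 over the arrays, with its lowest level, -2.30, on replicate 4. A second Rab4b probe was called on replicates 1 and 4, at a signal of 85.2 on replicate 4 and 4.11 to 15.9 on the others.

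The 3 Rab5 genes, whose products direct fusion of early endosomes and young phagosomes, had different patterns of calls. Rab5a (NM_022692) had signals of 3.49, 3.52, 5.65 and 85.6 and was called on replicate 4 only. Rab5b had signals of 46.6, 28.4, 45.1 and 19.8 and was called on replicates 1 to 3 but not on 4. Rab5c had signals of 19.5, 21.4, 17.7 and 21.8 and was called on replicates 1 and 2. Rab5c thus had like signals on the arrays where it was called and where it was not, while Rab5a was near the negative controls on 3 arrays and clearly called on the other. The median pixel of the Rab5a spot on replicate 4 was 38.5 after background, so the processed value of 85.6 was 2.22 times as high. None of the 3 is in the group detected on all arrays.

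Of 11 members of late endosomes and lysosomes, 3 were detected, 2 were called on some arrays and 6 on none. Rab24, which acts in autophagy, had the narrowest spread of the detected members, with levels of -2.87, -2.93, -3.16 and -2.94 (SD 0.13). Rab29, which acts at the Golgi and on stressed lysosomes, had levels of -2.75, -2.95, -2.78 and -3.37 (SD 0.28). Rab7a, the main GTPase of late endosomes, had signals of 4.19, 3.04, 4.35 and 4.91, close to the negative control spots of each array. Rab7b and Rab9a were also called on no array, Rab9a at signals of 3.18 to 4.85. The 2 probes of Rab7b differed, with 15.7, 5.66, 3.51 and 14.8 for one and 3.28, 2.92, 3.78 and 22.1 for the other. Rab12, linked to lysosomal degradation, had signals of 22.8, 2.83, 11.4 and 4.00 and was called on replicate 1 only.

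Arl8a (NM_001109071), which the BORC complex recruits to lysosomes and which links them to kinesin, had the largest spread of the detected members. Its signals were 17.8, 14.9, 18.4 and 129, and its levels -4.43, -4.24, -3.68 and -0.79 (mean -3.29 ± 1.69, SD, n = 4). Replicates 1 to 3 lay together and replicate 4 was the high one, with a range of 12.5-fold. Its close relative Arl8b ran the opposite way, with signals of 32.3, 16.7, 16.0 and 3.98 and a call on replicate 1 only. The Arl8a spot on replicate 4 had a median pixel signal of 63, so the processed signal was 2.04 times as high, and on replicates 1 to 3 the ratio was 0.866 to 1.15. By median pixels, the Arl8a signals were 20.5, 13, 21 and 63, so replicate 4 was still the highest. Its difference on replicate 4, relative to all detected genes, was 3.39 on the log2 scale by processed signal and 2.28 by median pixels. With normexp background correction it was 0.96, but that correction added an offset of 50, which narrows the log2 differences of dim spots. The Arl8a result rests on 1 spot of 1 probe on 1 array.

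**Figure D2:**
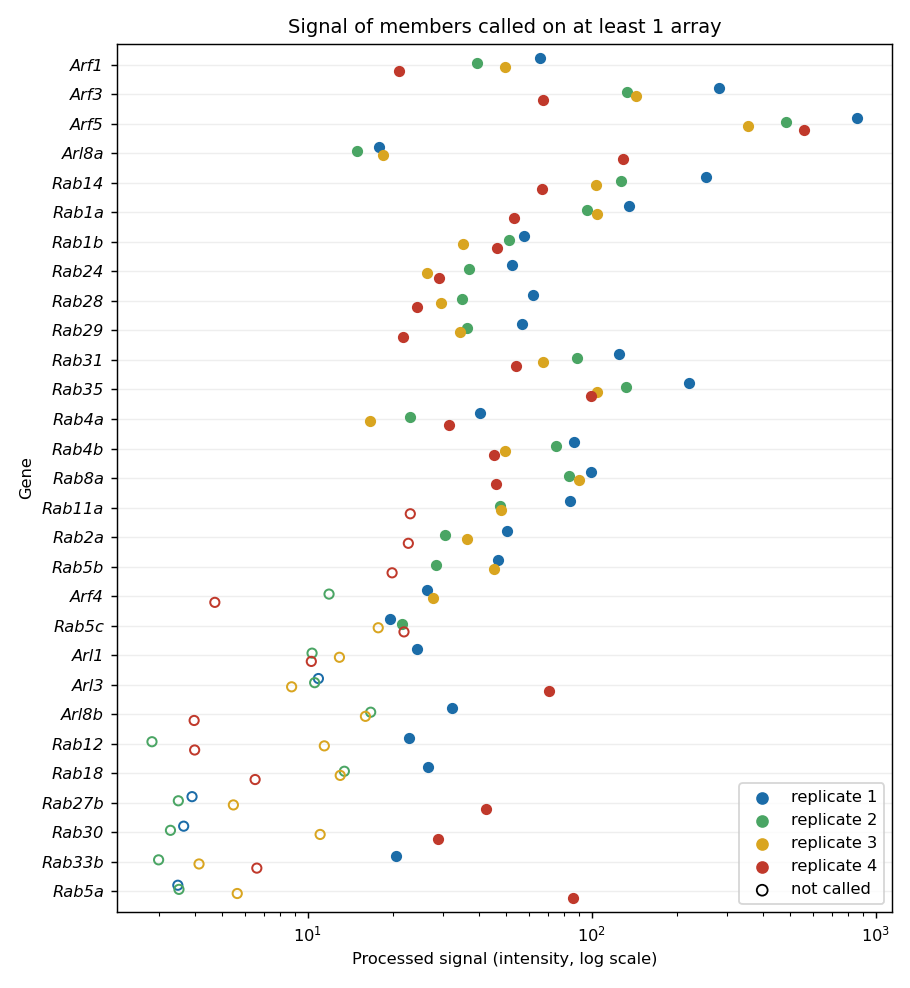
Processed signal (x axis, intensity on a log scale) of the 29 members called on at least 1 array (y axis), with 1 point per replicate, filled where the probe was called well above background and open where it was not. Rab5a, Arl3, Rab27b and Rab30 are filled for replicate 4 alone, and Arl8a is filled for every replicate with replicate 4 far to the right.

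Between the endoplasmic reticulum and the Golgi, 5 of 22 members were detected, 6 were called on some arrays and 11 on none. The detected genes were Arf1, Arf3 and Arf5, which recruit coats at the Golgi, and Rab1a and Rab1b, which tether vesicles arriving from the endoplasmic reticulum. Arf3 (NM_080904) had signals of 281, 133, 144 and 67.3 and levels of -0.45, -1.08, -0.71 and -1.73 (SD 0.55), and Arf1 (NM_022518) had levels of -2.54, -2.83, -2.25 and -3.41 (SD 0.49). Both were lowest on replicate 4, and both ranged over 2-fold, by 2.42 and 2.22.

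Arf5 (NM_024149) was highest on replicate 4, with levels of 1.16, 0.78, 0.59 and 1.33 (SD 0.34). Its signals of 860, 482, 356 and 561 were far from background on every array. Relative to all detected genes, its difference on replicate 4 was 0.56, and 0.92 with quantile normalization, but relative to all named genes, dim ones included, it was -0.32. The Arf genes thus did not share 1 order, with Arf1 and Arf3 lowest and Arf5 highest on replicate 4. Arf4 was called on replicates 1 and 3 (signals 26.4, 11.9, 27.5 and 4.71), and Arf2 and Arf6 on none.

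The Rab1 paralogs also differed in order. Rab1a had levels of -1.50, -1.54, -1.18 and -2.06 (SD 0.37), lowest on replicate 4, and Rab1b -2.73, -2.45, -2.74 and -2.26 (SD 0.23), highest there. Relative to all detected genes, Rab1b on replicate 4 was -0.030 with quantile normalization, and its SD did not exceed the noise between spots of like signal (90th percentile 0.420). Whether the probes of near-identical members, such as Arf1 and Arf3 or Rab1a and Rab1b, also bind each other's transcript was not tested.

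The partly called members of this step were Rab2a, Arl1, Rab18, Rab30 and Rab33b beside Arf4. Rab2a, which acts on vesicles between the Golgi and the endoplasmic reticulum, was called on replicates 1 to 3 (signals 50.5, 30.4, 36.3 and 22.6). Rab18, a GTPase of the endoplasmic reticulum and lipid droplets, was called on replicate 1 only (26.5, 13.5, 13.0 and 6.53), as were Arl1, a trans-Golgi GTPase (24.2, 10.4, 12.9 and 10.3), and Rab33b, a Golgi and autophagy GTPase (20.5, 2.99, 4.14 and 6.62). Rab30, a Golgi GTPase, was called on replicate 4 only (3.66, 3.29, 11.1 and 28.8). Rab2b, Rab6a and Rab6b were among the 11 called on no array.

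Recycling and cell surface members were detected in 2 of 11 cases, with 1 on some arrays and 8 on none. Rab8a, which serves traffic to the plasma membrane, had signals of 99.5, 83.3, 90.5 and 45.8 and levels of -1.95, -1.75, -1.38 and -2.28 (SD 0.38), lowest on replicate 4. Rab35, a GTPase of recycling and of actin at the cell surface, kept within -1.18 and -0.80 (SD 0.18). Rab11a, the GTPase of recycling endosomes, had signals of 83.9, 47.4, 47.8 and 23.0, and was called on replicates 1 to 3 but not on 4. Rab8b, Rab10 and Rab11b, also of this group, were called on no array.

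Regulated secretion had no detected member among 7. Rab27b, which docks secretory granules, was called on replicate 4 only, with signals of 3.91, 3.50, 5.47 and 42.4, and Rab3a, Rab3b and Rab3c were among the 6 called nowhere. The Rab27b spot on replicate 4 had a median pixel of 17, so the processed signal was 2.49 times as high, and the gene's other 2 probes read 4.00 and 4.65 on the same array. Among 6 members of the cilium, microtubules and mitochondria, Rab28 was detected, Arl3 was called on replicate 4 only, and Rab23, Arl2, Arl6 and Arl13b on none. Rab28, linked to cilia, had signals of 62.0, 34.8, 29.4 and 24.3, and its SD over the levels was 0.24. Arl3, which releases lipid-modified cargo into cilia, had signals of 10.9, 10.6, 8.78 and 70.5. Its median pixel on replicate 4 was 68.5, so for Arl3 the 2 measures of the spot were close (ratio 1.03). The 10 members placed in no role were called on no array.

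Calls were spread unevenly over the arrays. Members called numbered 25, 19, 19 and 19 of 77 on replicates 1 to 4, against 21.1, 17.7, 15.8 and 20.3% of all named genes. On replicate 4 the members were therefore at 24.7% and all genes at 20.3%, while on replicate 1 they were at 32.5% and 21.1%. The members called on replicate 1 only were 5 (6.49%, against 2.98%), namely Arl1, Arl8b, Rab12, Rab18 and Rab33b. Replicates 2 and 3 held no member called there alone (0.396% and 0.268% of all genes). On replicate 4 only there were 4 (5.19%, against 7.19%), namely Arl3, Rab27b, Rab30 and Rab5a. Called on replicates 1 to 3 and not on 4 were 3 (3.90%, against 2.91%), Rab11a, Rab2a and Rab5b. The shares for replicate 4 lay near those of all genes, and nothing particular to these families is read from them.

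Over the 15 detected members, the median SD between arrays was 0.340 on the log2 scale, against 0.241 over all 1946 detected genes, and 9 of 15 exceeded the latter. The 15 members were read from probes printed once, while a gene whose probe was printed 10 times had a level averaged over its spots. The part of this in the comparisons with all genes was not measured. The order of members and all genes turned with normexp background correction (0.160 for members, 0.167 for all genes) and with no filter on dim probes (0.488 and 0.551). It thus depends on the processing. Normexp added an offset of 50 to every spot, which narrows the log2 differences of dim spots. A range above 2-fold was found in 5 of 15 (33.3%, against 15.3%), namely Arf1, Arf3, Rab14, Arl8a and, at only 2.00-fold, Rab4a. Without replicate 4 there were 0 such members of the 18 then detected (3.66% of all genes), and without replicate 3 there were 3 (13.8%). The share of all genes moved with the setting too. The count was 1 with normexp background correction (2.00% of all genes), 3 with median pixel signals (13.3%) and 11 with quantile normalization (39.9%). It was 4 with all gene spots kept (16.3%) and 4 with the mean of all detected probes (14.7%). Replicate 4 was the lowest array for 9 of 15 (60%, against 39.6%) and the highest for 4 (26.7%, against 30.1%), namely Arf5, Arl8a, Rab1b and Rab4a.

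Replicate 4 less the mean of replicates 1 to 3 had a median of -0.32 over the 15 members and -0.07 over all detected genes, and 10 of 15 lay below the latter. The difference of these medians, -0.24, was -0.067 with normexp and -0.066 with no filter on dim probes. Arf1, Arf3, Rab14 and Rab1a fell under the 10th percentile of all detected genes (-0.60), and Arl8a and Rab4a over the 90th (0.67). The members thus spread on both sides, with 10 below the median of all genes and Arl8a and Rab4a, both dim, above the 90th percentile. An order over the arrays is relative to the scaling. Scaling by all gene probes moved the median of all detected genes on replicate 4 to -1.64, and no scaling moved it to -0.47. With 1 array on one side, this difference has no replicate check and no p-value.

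**Figure D3:**
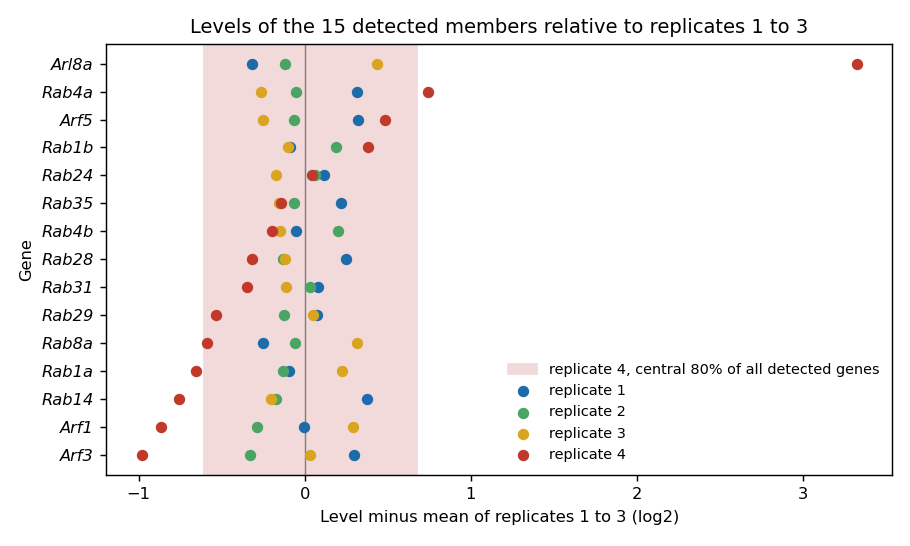
Level of each of the 15 detected members (y axis) on each replicate, less its mean over replicates 1 to 3 (x axis, log2). The shaded band runs from the 10th to the 90th percentile of all detected genes for replicate 4 (-0.60 to 0.67). Replicate 4 lies left of the band for Arf1, Arf3, Rab14 and Rab1a and right of it for Arl8a and Rab4a, the latter not so with quantile normalization.

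Members had too few repeated spots to measure their own noise, since 98 of their 101 probes were printed once. The noise was taken instead from probes printed 10 times on each array. In the signal range of 15 to 30, the median SD between spots was 0.38 and its 90th percentile 0.74, and from 240 to 960 these were 0.15 and 0.24. The SD over arrays exceeded that 90th percentile for 7 of 15 members (46.7%, against 29.7% of 1835 detected genes in these ranges). They were Arl8a in the dimmest range, Arf1, Rab1a, Rab8a, Arf3, Rab14 and Arf5. For the other 8, among them Rab4a, the SD over arrays did not exceed it.

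**Figure D4:**
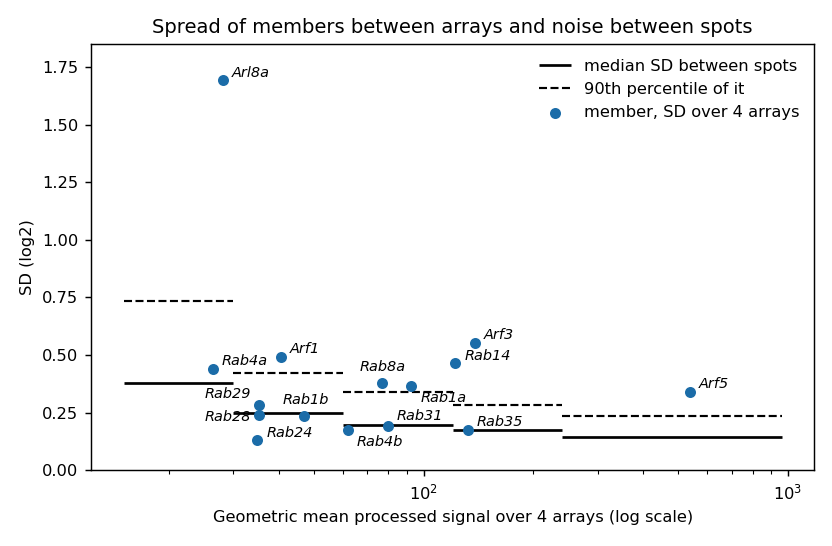
SD over the 4 arrays (y axis, log2) of the 15 detected members against their geometric mean processed signal (x axis, log scale). Solid lines are the median SD between spots of probes printed 10 times and dashed lines its 90th percentile, in 5 ranges of signal. Arl8a, Arf1, Rab1a, Rab8a, Arf3, Rab14 and Arf5 lie above the dashed line of their range.

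The 3 members with probes printed 10 times were Rab15, Rab34 and Rab6b, and none was called on any array. Rab15 had levels of -6.67, -6.54, -6.11 and -5.66, and Rab6b of -6.80, -6.42, -6.15 and -5.69. These differed between arrays beyond the noise between spots by limma's moderated F test (Benjamini-Hochberg adjusted p = 6.258e-13 and 3.069e-11), as did 81% of the 1350 probes tested. Rab34 had levels of -5.64, -5.76, -5.85 and -5.58 (limma adjusted p = 0.6155). The test compares arrays, not cultures. These are spots near background, and the negative control medians given above were also highest on replicate 4, whose scaling value was the lowest; their part in the test was not measured.

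Of the 8 detected members with 2 or more probes, 4 (50.0%, against 46.8%) also had a probe called on no array, namely Arf3, Rab14, Rab1b and Rab35. A gene's call thus rested on which probe was read. Rab14 had a second probe called on every array, and replicate 4 less the mean of the others was -0.76 by the first probe and -0.34 by the second, so the sign was shared and the size was not. The other second probes were not called on every array, so only their signals are given. Those of Rab1a (22.7, 19.3, 22.1 and 15.8) and Rab28 (52.7, 38.5, 33.9 and 9.08) were called on replicates 1 to 3. That of Arf1 (11.7, 5.99, 5.92 and 26.3) was called on replicate 4 only, where the first Arf1 probe was lowest. The second probe of Rab35 (5.78, 2.76, 3.16 and 23.7) was called on no array.

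Several high values on replicate 4 came from spots whose processed signal was well above the median of their pixels. Over all gene spots with a signal of 20 to 200, the 3170 called on replicate 4 only had a median ratio of processed to median pixel signal of 1.81, and 67.3% of them exceeded 1.5. The spots on replicate 4 that were called on every array had a median ratio of 1.00, and 2.52% exceeded 1.5. Spots called on replicate 1, 2 or 3 only had median ratios of 0.992, 1.06 and 1.12, and 2.16%, 6.56% and 36.1% of them exceeded 1.5. Such spots thus also occurred on replicate 3, where 61 spots were called alone in this range. Among members on replicate 4, the ratio was 2.62 for the second probe of Rab4b, 2.49 for Rab27b, 2.22 for Rab5a, 2.04 for Arl8a and 1.54 for Rab4a, and it was 1.22 for Rab30 and 1.03 for Arl3. The median over the 15 detected members was 0.961 on replicate 4. The part of uneven spots in the calls of single members was not tested.

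**Figure D5:**
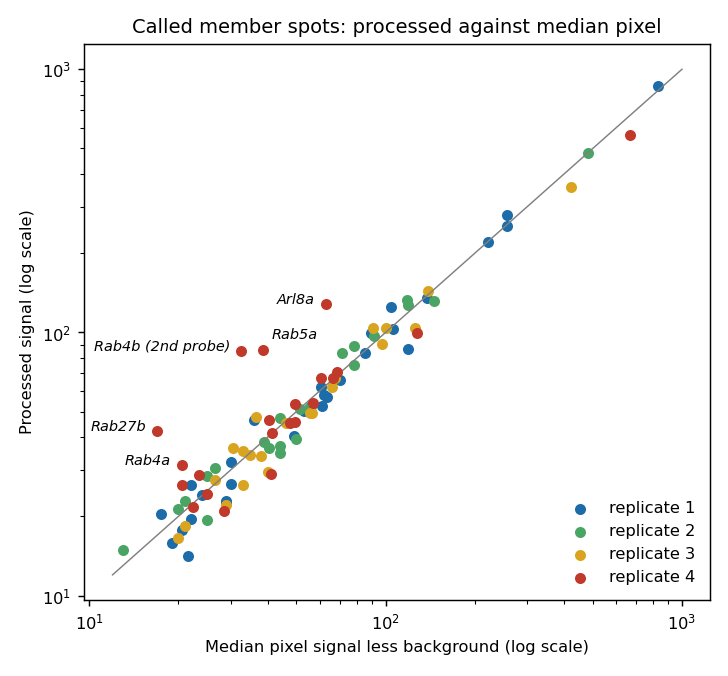
Processed signal (y axis, log scale) of each called member spot against its median pixel signal less background (x axis, log scale), coloured by replicate, with the line of equality. The median ratio of the 15 detected members is 0.961 on replicate 4. On that array 5 spots have ratios above 1.5, from 1.54 to 2.62, those of Rab4a, Rab27b, Arl8a, Rab5a and the second probe of Rab4b. Other spots of replicate 4, such as that of Rab30 (1.22), lie above the line by less.

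The regulators and partners of these GTPases were taken from 6 lists with 139 genes on the arrays. Of these, 29 (20.9%, against 11.9% of all genes) were detected. A further 47 were called on some arrays and 63 on none, where all genes had shares of 17.2% and 70.9%. The detected share was 12.5%, near that of all genes, in the list for Rab5 and Rab7 and in that of other Rab regulators. It was 21.7 to 38.1% in the other lists. In the list of Rab prenylation and recycling, 2 of 8 were detected, Gdi2, which extracts inactive Rab proteins from membranes, and Rabac1, a prenylated Rab acceptor, while Chm, the Rab escort protein, was called nowhere. Gdi2 had levels of -2.67, -2.63, -1.65 and -2.95, with replicate 3 the high one.

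Among exchange factors and effectors of Rab5 and Rab7, 3 of 24 were detected, namely Plekhm1, a Rab7 effector on lysosomes, and the retromer-linked genes Snx1 and Vps29, and Rabgef1, a Rab5 exchange factor, was called nowhere. Plekhm1 had levels of -3.75, -3.43, -3.68 and -1.95, high on replicate 4 as Arl8a was, and Vps29 had -1.82, -2.15, -1.99 and -2.90, low there as Rab14 was. In the list of other Rab regulators, 4 of 32 were detected, among them Tbc1d10b, a Rab GAP, Dennd5a, an exchange factor, and Gorasp1, a Golgi stacking protein, and Rab3ip, a Rab8 exchange factor, was called nowhere.

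The Arf regulators had 7 of 31 detected, among them the exchange factors Gbf1 and Cyth2 and the GAP Arfgap1, while the exchange factor Arfgef1 was called nowhere. Cyth2 was nearly level over the arrays (-0.50, -0.43, -0.48 and -0.44). The coats that Arf1 recruits, with those of the endoplasmic reticulum, had the most detected genes of the 6 lists, 8 of 21, among them the coatomer subunits Copa, Copb2 and Copg1, and Copz2 was called nowhere. Copb2 had levels of -2.42, -2.60, -2.15 and -3.33, lowest on replicate 4 as Arf1 was, but Copg1 had -3.03 on replicate 1, -3.18 on replicate 2 and -2.54 on replicate 4, the highest of its levels. Of the Arl partners and the BORC subunits, 5 of 23 were detected, among them Arl6ip4 and the lipid cargo carriers Unc119 and Unc119b, and Arl2bp, a partner of Arl2, was called nowhere. Unc119 (-2.64, -2.87, -2.57 and -2.54) and Arl6ip4 (-1.08, -1.17, -1.18 and -1.31) varied little over the arrays.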

How the data were processed

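The 1-colour Agilent arrays were scanned with Cy3, and the group and replicate number of each sample came from its title. Agilent Feature Extraction (version 11.0.1.1 in the submitters' processing notes) wrote the deposited processed signal, a linear spot intensity after background subtraction that is not scaled between arrays, per the file headers. Deposited medians of spot and background pixels served in the alternatives. The software's flags, for signal well above background and for uneven or outlying spots, were used as deposited.

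Control spots and flagged gene spots (546 to 1296 per array) were left out. A probe counted as called where the flag held for over 50% of the spots left. Only 3208 of 45598 gene probes (7.04%) were called on all arrays, and their 75th percentile was the scaling value of an array. RefSeq genes of assembly GRCr8, matched by transcript accession, named 21109 probes (46.3%), and the brightest detected probe gave a gene its value. For a member detected on no or some arrays, the probe called on most arrays was used. Median pixel signals are the median signal less the median background and the array's median negative control. Normexp background correction added an offset of 50 to every spot. Probes printed 10 times were tested between arrays with limma version 3.58.1 in R version 4.3.3, a procedure also tested on simulated data. Python version 3.11.15, numpy version 2.4.6 and pandas version 2.3.3 did the rest. The number of arrays, 4, limits the precision.

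Detected members and those called on some arrays were named. Values on each array were given for members with a probe printed 10 times, the 12 with the largest SD and any far from its group, and for others that a paragraph discusses. Of the members on no array, the first 3 per role list were named, as were the first 3 detected genes and the first 1 on no array per list of regulators, and up to 5 members whose probes disagree. Some further members were chosen after their values were seen (Arl13b, Arf2 and Arf6 among those on no array). The members, roles and lists were chosen with earlier results of these data known. Protein sequences were not analysed here.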

Additional observations from a re-analysis of the deposited data

Results flagged for a closer look

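Arl3 was the only member of 29 examined for which 1 array lay far from the other 3 by Dixon's test at the 95% level, a rule that flags about 1 in 20 groups of unremarkable values. Its level was -1.66 on replicate 4, and the nearest of the others was -4.73, a gap of 0.883 of the whole range and past the critical value for 4 samples. The 3 lower values were not well above background, so the range itself is a bound. The 29 were the members called on at least 1 array, and Arl3 was among them only through its call on replicate 4. The flag therefore rests on the value that brought Arl3 into the set and adds no support to it. A count of 1 in 29 is also no more than a rate of 1 in 20 would give.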

How the results depend on the processing

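The count of 15 detected members became 25 of 77 (against 21.5% of all genes) with signals 10% above the 95th percentile of negative controls as the rule. It became 7 of 77 (against 9.51% of all genes, above the members' share) when every probe of a gene had to pass. It was 15 to 18 when each replicate was left out in turn. The median SD was 0.237 to 0.388 without 1 replicate and 0.967 with scaling by all gene probes, where that of all genes was 0.851. It was below that of all genes with normexp (0.160, against 0.167) and with no filter on dim probes (0.488, against 0.551). The 5 members ranging over 2-fold (15.3% of all genes) became 0 to 5 without 1 replicate. There were 4 with all gene spots kept (16.3%) and 4 with the mean of all detected probes (14.7%). The count was 15 with scaling by all gene probes (92.8% of all genes), 11 with quantile normalization (39.9%) and 12 with no scaling (52.8%). It was 1 with normexp (2.00%) and 53 of 77 with no filter (72.5%, above the members' share). With median pixel signals, an alternative chosen after seeing the data, it was 3 (13.3%). The lower median on replicate 4, relative to all genes (-0.24), was -0.32 to -0.17 without replicate 1, 2 or 3 -0.75 with quantile normalization, -0.067 with normexp and -0.066 with no filter, and could not be defined without replicate 4. The direction held in the alternatives run, though scaling by all gene probes and no scaling shift a whole array and could not change it. The median of all detected genes itself moved to -1.64 with scaling by all gene probes, -0.47 with none, -0.46 with quantile normalization and 0.08 with normexp, and that of all named genes was 0.81 with no filter. With no filter, limma called 2 members, against 0 among detected genes, where no member was tested. Scaling by all gene probes and no scaling also could not change the values of single genes relative to all detected genes. With those included, 128 of 165 values of single genes on replicate 4 moved by less than the gene's SD. A change of sign was seen in 11, in 5 genes. These were Arf5 with no filter (-0.32), Rab1b with quantile normalization (-0.030) and no filter (-0.42), Rab4a with quantile normalization (-0.13) and no filter (-0.066), Rab24 with quantile normalization (-0.82) and no filter (-0.76), and Rab35 without replicate 1 (0.026), with quantile normalization (0.17), normexp (0.048) and median pixel signals (0.13). Rab24 and Rab35 had started near 0 (0.11 and -0.069). The cause was not tested. No paired analysis was possible because there is 1 group. The slide and the scan hold all 4 arrays and could not be tested as batches. Most members were called on no array, so these data cannot show differences among them. A call did not follow the signal alone. On replicate 4, Arf1 was called at 21.0 and Rab29 at 21.6, but Rab5c at 21.8 and Rab11a at 23.0 were not.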
